A study of Homo sapiens and Mus musculus with 4 samples.

Results

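EEF1A1, EEF1A2, EEF1B2, EEF1D, EEF1G and EEF2 are 6 human genes for the factors that carry out the elongation step of protein synthesis, set here against 20033 protein-coding genes in all. They were examined for binding of ATF4, a transcription factor whose translation increases when amino acids run short or the cell is otherwise stressed. The genes were chosen by a peak already known in these data, since the widest listed KG1a peak covers one end of EEF1A1, and the other 5 were taken as its partners in elongation. A peak counted for a gene where it overlapped the gene span with 10 kb added on each side. By that rule 1 of the 873 KG1a peaks belonged to these genes.

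The KG1a ChIP library was chromatin precipitated with an anti-ATF4 antibody, set against an input library of KG1a chromatin taken without antibody. KG1a is a human acute myeloid leukaemia cell line, and its medium held 20% fetal bovine serum. A second pair, an anti-ATF4 library and an input library, came from bone marrow cells of C57BL/6 mice, whose age and number the labels do not give. The 4 libraries make 4 groups of 1, so no value below has a replicate check or a test, and the read depth is unknown. KG1a stands for 1 cell line, and the bone marrow cells were a mixture of types.

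In each round of elongation, eEF1A bound to GTP brings a charged tRNA to the ribosome, and EEF1A1 and EEF1A2 encode its 2 forms, the second found mainly in muscle and neurons. EEF1B2, EEF1D and EEF1G encode the subunits of eEF1B, of which the first 2 exchange the spent GDP for GTP and the third holds the complex together. EEF2 encodes the GTPase that then moves the ribosome along the mRNA by 1 codon. Apart from that of EEF1A2, these mRNAs are among the most abundant in growing cells. Many begin with a run of pyrimidines, the terminal oligopyrimidine (TOP) tract, through which mTOR signalling sets their translation.

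The EEF1A1 promoter is shown because it is the one sequence of the 6 genes that a KG1a peak covered. It spans chr6:73520983-73521282 on the minus strand (RefSeq, GRCh38.p14), from 250 bases before the annotated start to 50 bases into the transcript, and the 243 capitals lie inside the peak.
EEF1A1: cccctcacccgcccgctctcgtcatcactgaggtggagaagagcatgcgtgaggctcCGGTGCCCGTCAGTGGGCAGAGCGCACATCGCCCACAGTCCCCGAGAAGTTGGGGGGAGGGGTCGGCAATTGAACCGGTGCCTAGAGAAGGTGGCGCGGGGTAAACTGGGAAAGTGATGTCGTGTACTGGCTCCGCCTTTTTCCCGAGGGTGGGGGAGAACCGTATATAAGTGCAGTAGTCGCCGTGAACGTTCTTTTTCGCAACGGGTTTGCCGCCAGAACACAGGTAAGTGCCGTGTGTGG

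The EEF1A1 peak lay over the start of the gene and reached far into it. It spanned chr6:73520043-73521225 (GRCh38), a width of 1183 bp. EEF1A1 itself occupies 73515750 to 73521032 on the minus strand, so its transcription start is at the high-coordinate end. The peak took in 193 bases before the start and the first 990 bases of the transcribed region, which is 18.7% of the gene's 5283 bases. The remaining 4293 bases of the gene, and the 10 kb on either side beyond the peak, held no other listed peak. The peak's centre lay 398 bases downstream of the start. The gene table used here gives no exons, so the part inside the gene was not divided into exon and intron, and the promoter sequence above holds 20.5% of the peak.

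The width of this peak was what chose the gene, and it is given as a description. The next widest KG1a peaks measured 1023 and 881 bp, and the median of the list was 341 bp, so the EEF1A1 peak was 1.16 times the second and 3.47 times the median. Of the 873 peaks, 2 were wider than 1 kb. The EEF1A1 peak also stood in place 1 of the list as deposited, although the list has no score column and nothing read here says what set its order. Chromosome 6 held 49 peaks, and the other 48 had a median width of 334.5 bp and a maximum of 567 bp. The neighbouring peaks on either side lay 856 kb and 2.19 Mb away and were 337 and 369 bp wide.

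**Figure D1:**
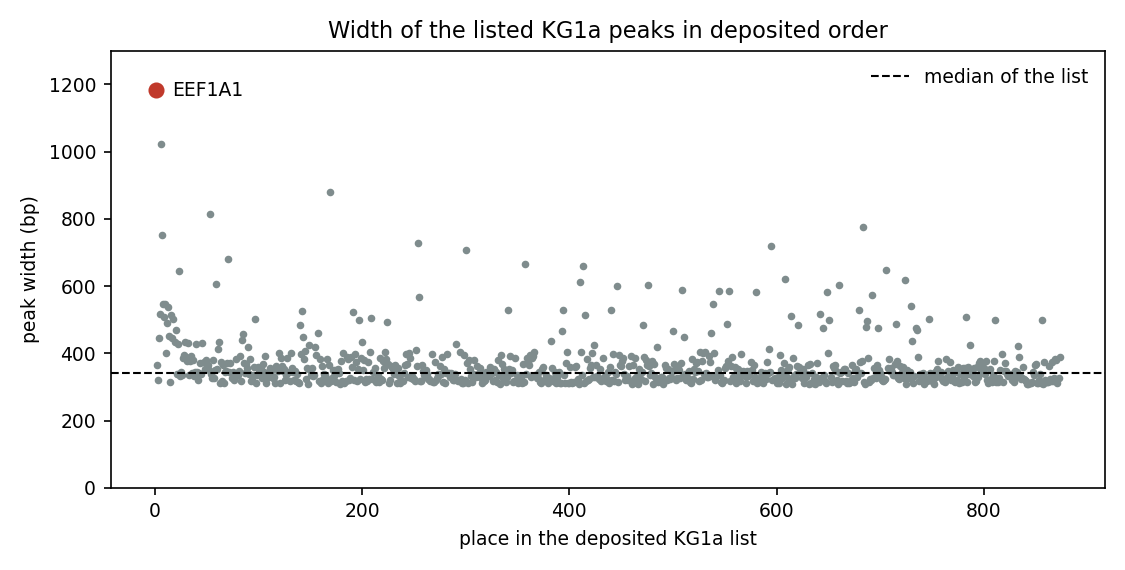
Width of each of the 873 KG1a peaks (vertical axis, bp) against its place in the deposited list (horizontal axis), with the EEF1A1 peak in red and the median of 341 bp as a dashed line. The EEF1A1 peak, at 1183 bp, is first in the list and the widest, and most other points lie near the minimum of 310 bp.

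Peaks that overlapped an end of a protein-coding gene were few, and the EEF1A1 peak was the widest of them. There were 32 such peaks at 35 genes. The transcription start was known for 32 of these genes, and at 27 of them the peak contained it. Where a peak held more than 1 annotated start of a gene, as at GARS1, positions were counted from the first listed. YARS1, EIF2S2 and SLC7A11 had no start in the table and were not scored. In width EEF1A1 was followed by C18orf32 at 775 bp, CHAC1, whose enzyme degrades glutathione, at 753 bp, DUSP11, an RNA phosphatase gene, at 581 bp, YARS1, the tyrosyl-tRNA synthetase gene, at 547 bp and AARS1, the alanyl-tRNA synthetase gene, at 539 bp. DDX19B, an RNA helicase gene, shares the AARS1 peak and so its width. No replicate gives these widths an error, so their order is that of this list alone.

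From the start the EEF1A1 peak ran 989 bases downstream, farther than at any other of the 27 genes. This reach is part of the width that chose the gene and carries no test. Genes with a start in a peak but inside the gene span, such as SLC3A2, are not among the 27. At the other 26 of the 27 genes, the downstream reach had a median of 112 bases and a maximum of 527, at DUSP11. With positions counted from the start and upstream negative, the centre of the EEF1A1 peak was at 398 bases, while the centres at those 26 genes ran from -342 to 237 bases, with a median of -77.5. At 8 of the 26 the centre lay downstream of the start. On the upstream side the EEF1A1 peak reached 193 bases, less than the median of 266 and the maximum of 718 at CHAC1.

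**Figure D2:**
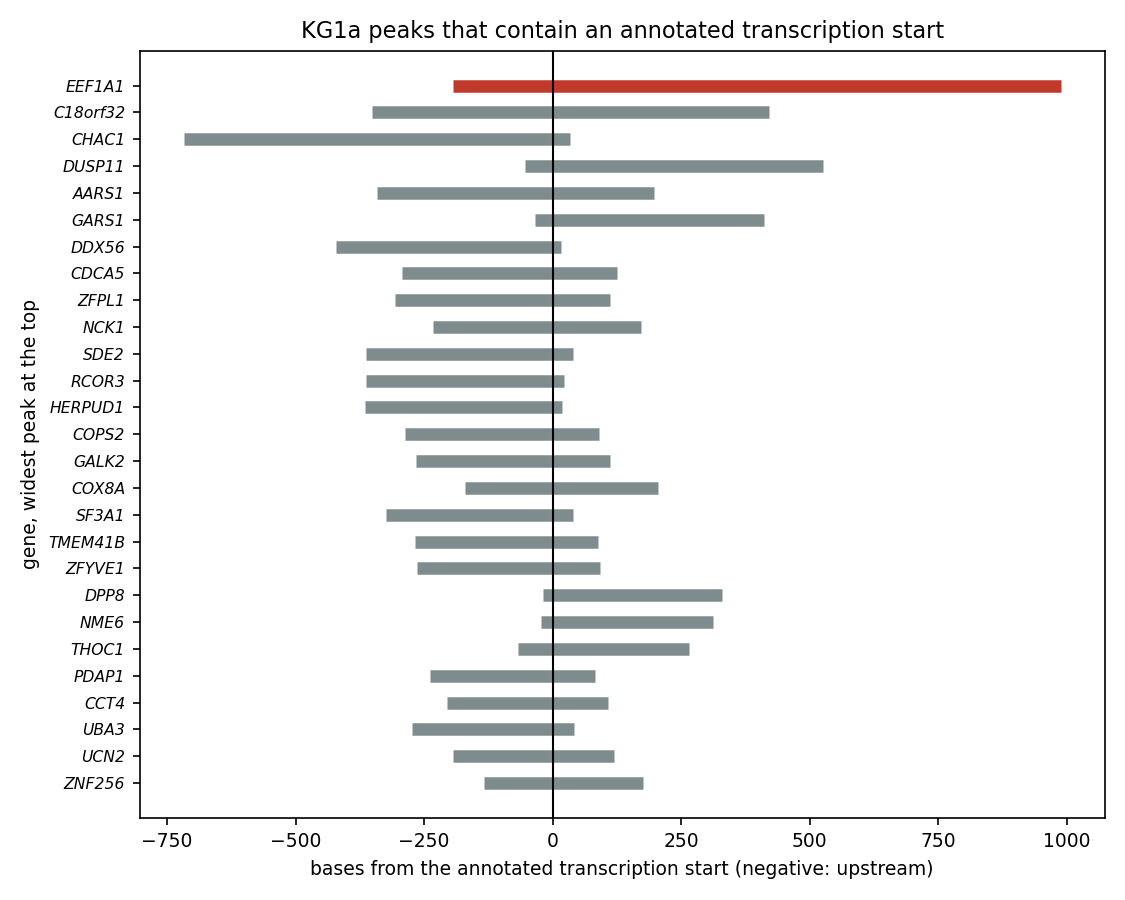
Extent of the KG1a peak at each of 27 protein-coding genes whose annotated start, at an end of the gene, lies in the peak (horizontal axis, bases from the start, negative upstream), with the widest at the top and EEF1A1 in red. The EEF1A1 bar runs from 193 bases upstream to 989 bases downstream, and no other bar passes 527 bases downstream.

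Reads over this stretch have possible sources besides the gene. The EEF1A1 promoter with its first intron is widely used to drive transgenes in expression vectors, and a read from such a construct would align to the same bases. The peak took in 193 bases before the start and the first 990 transcribed bases, and this extent was not compared with any construct. The labels name no construct in these cells, and whether any was present was not tested. Copies of EEF1A1 elsewhere in the genome would be a second source only if they held bases that the peak covers, which was not tested. The gene table lists 74 pseudogenes named after EEF1A1, EEF1B2, EEF1D or EEF1G. Of these, 50 are named after EEF1A1 and spread over 22 chromosomes, and the others are copies of different genes. Of the 74, 0 overlapped a KG1a peak, where 0.0821% of all 17051 pseudogenes did, so fewer than 1 was to be expected and the count shows nothing about these copies. Within 10 kb 1 of the 74 had a peak, against 0.616% of all pseudogenes. That copy was EEF1A1P24, with a peak of 324 bp in place 599 lying 5.59 kb from it at chr3:39365711-39366034. How reads that align to more than 1 place were handled is not stated in the labels or files.

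The promoters of 4 of the 6 genes, EEF1A1, EEF1B2, EEF1G and EEF2, were in the promoter table, with 5 windows because EEF1B2 has 2 annotated starts. Their first bases are shown because they bear on the TOP tract, with 20 bases before the start in lower case and the first 20 transcribed bases in capitals.
EEF1A1: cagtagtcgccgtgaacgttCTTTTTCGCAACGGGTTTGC
EEF2: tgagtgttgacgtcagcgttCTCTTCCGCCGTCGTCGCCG
EEF1B2, second start: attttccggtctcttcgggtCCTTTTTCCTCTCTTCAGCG
EEF1B2, first start: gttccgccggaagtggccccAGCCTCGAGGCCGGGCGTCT
EEF1G: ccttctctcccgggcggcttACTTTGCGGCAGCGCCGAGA
EEF1A1 and EEF2 each began with a C and a run of 7 pyrimidines, and the second EEF1B2 start with a run of 16. The annotated start of EEF1G and the first of EEF1B2 were an A. A start with C and at least 5 pyrimidines was a rule set after the sequences were seen. Such a start occurred in 5 of the 57 promoter windows that overlapped a KG1a peak, 8.77%, and the EEF1A1 window is among the 5. Over all 22077 promoter windows of protein-coding genes the share was 4.53%, and the difference was not tested. A peak overlapped 0.258% of all these windows, and of the 3 member windows with such a start it overlapped that of EEF1A1 and neither of the others.

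ATF4 pairs with C/EBP proteins on a composite element, searched here as TGATGNAA. Members of its protein family bind the cAMP response element, searched as TGACGTCA. A match on either strand was counted, and CCAAT, a common promoter word, served as a comparison. In the 5 windows of the elongation factors the composite element had 0 matches, the EEF1A1 window included. The only cAMP response element was in EEF2, 13 bases before the start, where the letters tgacgtca can be read in the sequence above, and EEF2 had no listed peak. CCAAT occurred 3 times in EEF1G and 1 time in the second EEF1B2 window, and 0 times in EEF1A1 and EEF2. No match says only that these letters are not in this window, and the 990 bases that the peak covers inside EEF1A1 were read for only their first 50.

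Of the 57 windows that overlapped a KG1a peak, the composite element was found in 7, or 12.3% (Wilson 95% interval 6.08 to 23.2%). Over all 22077 windows it was found in 596, or 2.70% (2.49 to 2.92%), and these intervals cover counting error only. They also treat the windows as independent, although some share a peak, as those of CDCA5 and ZFPL1 do. The 7 belonged to AARS1, CHAC1, GARS1, HERPUD1, S100PBP, SLC3A2 and TARS1. The S100PBP window lies inside the peak that overlaps an end of YARS1, which had no promoter window of its own here. The cAMP response element was in 1 of the 57 windows (1.75%) and in 2.25% of all, and CCAAT in 22 of the 57 (38.6%) and in 34.7% of all. Sites at 3 of the genes are shown for contrast with EEF1A1, each inside its KG1a peak, with the match, which reads on the opposite strand, in capitals.
CHAC1, chr15:40953251-40953280, plus strand: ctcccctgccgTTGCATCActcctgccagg
AARS1, chr16:70289675-70289704, minus strand: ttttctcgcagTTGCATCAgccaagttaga
GARS1, chr7:30594834-30594863, plus strand: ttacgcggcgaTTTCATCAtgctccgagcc
The EEF1A1 window held 60.7% G and C against a median of 62.3% over all windows, and 24 CpG pairs against a median of 21.

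The other 5 elongation factor genes had no listed KG1a peak in their windows. With EEF1A1 that makes 1 of 6 genes, 16.7%, where 632 of 20033 protein-coding genes, 3.15%, had a peak by the same rule. As EEF1A1 was chosen for its peak, nothing is read from that share. The nearest listed peak lay 308 kb from EEF1G, 759 kb from EEF1A2, 1.07 Mb from EEF1D, 1.09 Mb from EEF1B2 and 1.63 Mb from EEF2. These distances were measured from the gene span, and the closest of them was 308 kb beyond the gene where the window ended at 10 kb. For all protein-coding genes with a peak on their chromosome the median distance was 960 kb, with the central 50% between 355 kb and 2.29 Mb, so 4 of the 5 lay within that range and EEF1G was nearer.

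EEF1G, the scaffold of eEF1B, occupies chromosome 11, 62559596 to 62573891. Its nearest peak, 391 bp wide and in place 35, spanned 62881510 to 62881900 and overlapped the promoter window of SLC3A2, which encodes the heavy chain shared by several amino acid exchangers. EEF2, the translocation factor, occupies chromosome 19, 3976056 to 3985463, and its nearest peak had a width of 340 bp. EEF1A2, on chromosome 20 from 63488014 to 63499083, had its nearest peak on the low-coordinate side, 327 bp wide. The exchange factor genes were EEF1B2, on chromosome 2 from 206159609 to 206162928, and EEF1D, on chromosome 8 from 143579728 to 143597415, with nearest peaks of 370 and 313 bp. These 4 peaks, at 313 to 370 bp, were no wider than the upper quartile of the list, 371 bp.

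The 6 windows also held 15 other annotated genes, 8 of them protein-coding, and none of these had a listed peak within its span. At EEF1A1 they were MTO1, a gene of mitochondrial tRNA modification lying 6.51 kb away, and EEF1A1-AS1, a long non-coding RNA gene whose nearer end is 2.58 kb from EEF1A1. NDUFS1, a gene of respiratory complex I, lies 0.164 kb from EEF1B2. The small nucleolar RNA genes SNORD51 and SNORA41 lie inside EEF1B2 and SNORD37 inside EEF2. PYCR3, a gene of proline synthesis, lies 5.79 kb from EEF1D.

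**Figure D3:**
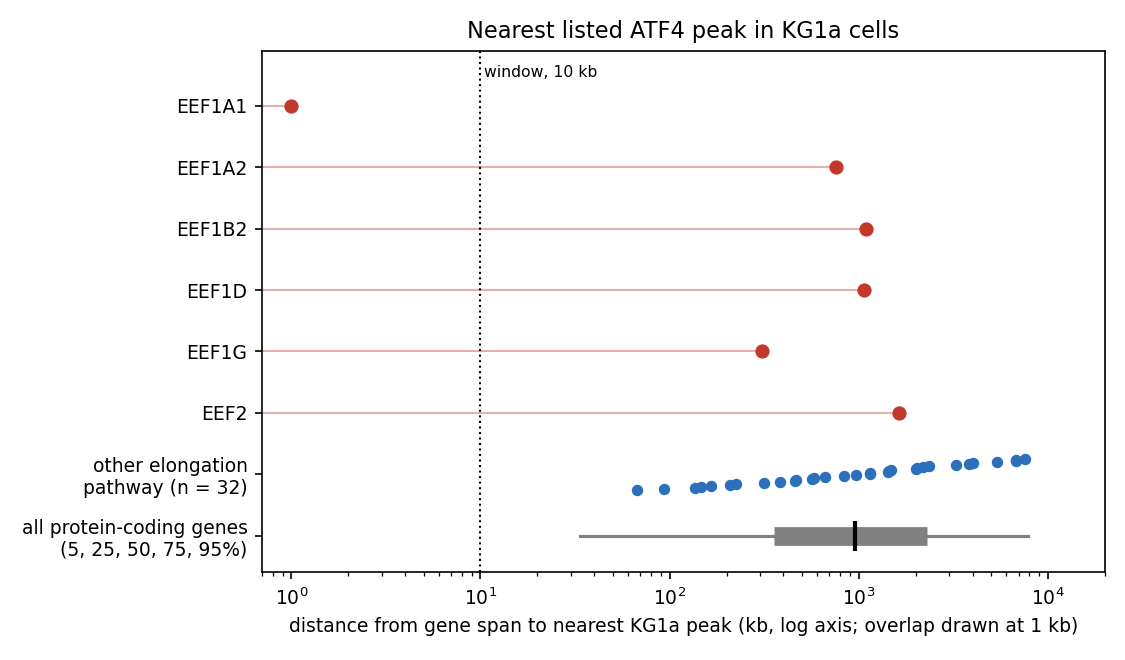
Distance from each gene span to the nearest KG1a peak (horizontal axis, kb, log scale, overlap drawn at 1 kb) for the 6 elongation factor genes in red, 32 other genes of the elongation pathway in blue and all protein-coding genes in grey, where the bar is the central 50%, the line runs from 5 to 95% and the tick is the median of 960 kb. EEF1A1 is the only gene of the first 2 sets left of the 10 kb line, and EEF1G comes next among the red points at 308 kb.

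The wider elongation pathway was without listed peaks. Of 32 genes, 0 had a KG1a peak within 10 kb, where the 3.15% of all protein-coding genes corresponds to about 1 gene in a list of this length, so a count of 0 shows no deficit. Their distances to the nearest peak had a median of 1.06 Mb, against 960 kb for all protein-coding genes. The nearest were EEF1AKMT2, which encodes a methyltransferase of eEF1A, at 67.2 kb, and GTPBP2, a GTPase gene linked to rescue of stalled ribosomes, at 93.7 kb. DPH2, a gene of the diphthamide modification that eEF2 carries, followed at 136 kb, and HBS1L, an eEF1A relative that acts on stalled ribosomes, at 147 kb.

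By role, the 14 genes for the eEF2 kinase and for diphthamide and methylation enzymes had a median distance of 650 kb, with EEF2K, whose kinase inactivates eEF2, at 165 kb. The 4 genes of the hypusine factor and its enzymes had a median of 863 kb, with EIF5A2 at 462 kb and EIF5A at 1.44 Mb. Of the eEF1 complex partners, EEF1E1 lay 224 kb and VARS1, the valyl-tRNA synthetase gene, 3.25 Mb from a peak. The 7 related GTPase and recycling genes, among them GTPBP2 and HBS1L, had a median of 1.15 Mb. The 5 mitochondrial elongation genes had a median of 2.02 Mb and the nearest of them, TUFM, lay at 663 kb. No set came within 10 kb, and the differences between these medians were not tested.

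The mouse side of the rule could not be applied, because no gene positions of the build GRCm38 were used here, so the mouse orthologues of the 6 genes were not analysed. Of the mouse list as a whole, 16206 of 83088 peaks, 19.5%, were at least as wide as the human EEF1A1 peak, and the mouse median was 544 bp. A width of 1183 bp was therefore the extreme of the KG1a list and common in the mouse list, which differs from it in species and cells, and whose depth is unknown too.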

How the data were processed

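Each deposited list has 3 columns, chromosome, start and end of each peak in bases, with no score, height or p-value. The tools named, per the submitters' processing notes, are Bowtie2, MACS2, deepTools and CASAVA 1.4, with the builds GRCh38 and GRCm38, but no setting or peak threshold. The authors made 1 list per cell source, ChIP against input, per the labels. Starts were read as counted from 0 and are printed from 1.

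Peaks were overlapped by at least 1 bp with spans of protein-coding genes (RefSeq, GRCh38.p14, chromosomes 1 to 22, X and Y) plus 10 kb, in Python 3.11.15 with pandas 2.3.3. Distance is the number of bases between span and peak. Promoter windows are RefSeq's, with identical windows counted 1 time. The overlap code was tested on simulated data. The design foresaw no test. By the rule, the text names the 6 members, pathway genes with a peak in the window (0 found), and the 5 genes next to EEF1A1 in width of a peak at a gene end, plus DDX19B, which ties for the last of these places. Other genes named, such as pathway genes by distance, neighbours and genes with a composite element, were picked after their values were seen. The members and lists were chosen with earlier results of these data known.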

Additional observations from a re-analysis of the deposited data

How the results depend on the processing

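EEF1A1 was the 1 member with a KG1a peak under 7 alternatives, namely gene span alone, 1, 5 and 50 kb, the peak centre in the window, the widest 25% of the list, and 1 kb around the transcription start. The last could count only 4 of the 6 members, as EEF1A2 and EEF1D had no start in the table. The outcome of all 7 was fixed in advance. EEF1A1 was chosen by the widest peak, which covers its start, and the other members' nearest peak lay 308 kb away. The unchanged count is therefore no evidence of robustness. Without the EEF1A1 peak, an alternative chosen after seeing the data, the count was 0. The pathway genes gave 0 under all 8, of which the one on transcription starts could count 27 of the 32. The number of protein-coding genes counted with a peak, 632 at 10 kb, was 1252 at 50 kb, 173 for the widest 25% of the list and 81 within 1 kb of the transcription start, the last over the 15842 genes with a start in the table. These follow from the windows and lists used. The mouse alternatives were not run for lack of gene positions. No paired analysis was possible because each group has 1 library and no value comes from a test. Depth is unknown, so a gene without a listed peak is not shown to be unbound.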

Other observations

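Other genes of protein synthesis were counted by the same rule, with sets formed from gene symbols after the data were seen. Among 20 cytosolic tRNA synthetase genes 4 had a KG1a peak within 10 kb, or 20%, against 3.15% of all protein-coding genes. These were AARS1, GARS1, TARS1 and YARS1, each overlapped by its peak. Of 55 genes whose symbol begins with EIF, 3 had one, or 5.45%, against 3.15% of all protein-coding genes. EIF2S2 and EIF2S3 encode the beta and gamma subunits of eIF2, the initiation factor whose phosphorylation raises ATF4 translation, and EIF4EBP1 encodes a repressor of cap-dependent initiation. The EIF2S2 and EIF4EBP1 peaks overlapped the gene and that of EIF2S3 lay 136 bp outside it. Of 84 genes with ribosomal protein symbols, 1 had a peak within 10 kb, or 1.19%, RPL17 at 894 bp. Many mRNAs of that family also start with TOP tracts, which was not checked for these genes. These counts were not tested against each other or against the elongation factor genes.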
